A study of Mus musculus with 2 samples.

Results

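The S100 family genes of the mouse cervix were followed here, as 9 genes taken by symbol (S100a4, S100a6, S100a8, S100a9, S100a10, S100a11, S100a14, S100a16 and S100g) of the 31053 genes in the files. Cells of the mouse cervix had been profiled by single-cell RNA sequencing in 2 libraries, each from 9 pooled female C57BL6/129 mice aged 7 to 8 weeks, so each group has 1 library and no test between the groups could be run. All mice were ovariectomised (ovaries removed) and had 2 weeks to recover. The control group was left untreated for the 15 days of the experiment. Mice of the progesterone group were first injected with E2 (estradiol), 100 µg daily on 2 days, after which they carried a 25 mg progesterone pellet with a release time of 21 days, or about 1 mg daily. The progesterone library therefore differed from the control by both hormones, the injections and the pellet, which cannot be told apart. Levels are given as CPM, the unique molecular identifiers (UMIs) of a gene per 1000000 UMIs of the cells named, and every interval in brackets is a 95% interval that covers counting error only.

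S100 proteins are small calcium-binding proteins with EF-hand motifs that mostly work as dimers. S100a8 and S100a9 pair into calprotectin, which neutrophils carry in their cytosol and which stressed or inflamed stratified epithelium also makes; it withholds zinc and manganese from microbes. S100a4, S100a6, S100a10 and S100a11 bind annexins, myosin or other partners at the membrane and cytoskeleton, S100a14 and S100a16 are found mainly in epithelia, and S100g (calbindin-D9k) buffers calcium in the cytosol of calcium-transporting epithelium such as gut and uterus.

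Of the 9 members, 8 lie on mouse chromosome 3 between 90526856 and 93564643 (GRCm38, GENCODE), a stretch of 3.038 Mb, and S100g lies on the X chromosome. S100a8 (chr3:90668978-90670035, plus strand) and S100a9 (chr3:90692632-90695721, minus strand) are separated by 22596 bases. The promoters of these neighbours and of S100g (chrX:162961992-162964599, minus strand) are shown because these 3 genes carry the main contrasts below, between neutrophils and epithelium and between the libraries. RefSeq's promoter table (GRCm38.p6) held 7 of the 9 members, without S100a10 and S100a14. The stretches end just before the first exon of GENCODE, run 5′ to 3′ on the strand of the gene, and have capitals where TTNNGNAA, the core letters of a C/EBP site, occurs on either strand. They cover chr3:90668821-90668977 for S100a8, chr3:90695722-90695971 for S100a9 and chrX:162964600-162964849 for S100g.
S100a8: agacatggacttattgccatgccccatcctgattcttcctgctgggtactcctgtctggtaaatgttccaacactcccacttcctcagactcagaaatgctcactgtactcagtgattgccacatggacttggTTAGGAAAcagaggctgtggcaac
S100a9: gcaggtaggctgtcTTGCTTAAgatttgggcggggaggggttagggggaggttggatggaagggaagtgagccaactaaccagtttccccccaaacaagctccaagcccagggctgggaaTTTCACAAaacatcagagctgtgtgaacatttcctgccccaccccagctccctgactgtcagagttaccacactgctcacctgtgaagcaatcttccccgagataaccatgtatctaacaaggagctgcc
S100g: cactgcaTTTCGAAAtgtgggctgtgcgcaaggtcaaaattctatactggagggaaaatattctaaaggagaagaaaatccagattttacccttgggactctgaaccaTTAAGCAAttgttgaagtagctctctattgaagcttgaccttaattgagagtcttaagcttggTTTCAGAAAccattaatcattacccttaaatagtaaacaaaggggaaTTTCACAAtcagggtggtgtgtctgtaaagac
C/EBP factors act in both myeloid cells and differentiating epithelium. TTNNGNAA occurred once in the S100a8 window of 250 bases before RefSeq's start, at 2 places for S100a9 and at 4 places for S100g, and 36.8% of all 32851 promoters of that length held it. TATAAA on the strand of the gene, held by 7.59% of them, lay 30 to 25 bases before RefSeq's start in S100a8 and 31 to 26 in S100a4. RefSeq's S100a8 start, at 90669071, lies inside the GENCODE gene, which starts at 90668978. The S100a8 TATAAA therefore falls outside the printed stretch, within the gene as GENCODE draws it. The AP-1 letters TGANTCA (either strand, 6.75% of promoters) occurred at 2 places in S100a11 and 1 in S100a16, and the steroid receptor motif TGTTCT (either strand, 16.1%) at 1 in S100a6. These are matches of letters and not measured binding.

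After filtering, 4579 control cells and 8541 progesterone cells were analysed, with medians of 3733 and 4151 UMIs, and 19 cell barcodes occurred in both libraries. Clusters made without the S100 genes were named from marker lists as basal squamous-like (1237 control and 3866 progesterone cells), suprabasal squamous-like (1263 and 343), luminal-like (248 and 1968) and neutrophil-like (341 and 443), beside macrophage-like and fibroblast-like cells. Different clusters filled the same class in the libraries. The largest cluster of control basal cells was cluster 4 (610 of the 1237 cells), and progesterone basal cells were mostly clusters 5 and 2 (2150 and 1165). Control suprabasal cells were mostly clusters 8 and 1 (795 and 364) and progesterone ones cluster 0 (299). The control luminal class was nearly all cluster 17 (242 cells) and the progesterone one clusters 22 and 24 (945 and 886), so values within single clusters stand beside the class values. Cluster 17 itself differed between the libraries: in its control cells the squamous keratins Krt5, Krt14 and Krt13 were 2788, 2805 and 5030 CPM and in its progesterone cells 771, 152 and 2621 CPM, and the mucous cell gene Clca1 was 218 and 4553 CPM. The part of this in the member differences within cluster 17 was not tested. Some keratin-bearing clusters matched suprabasal and luminal markers about equally and stayed unnamed. Cluster 15 (63 and 16 cells) was high in the cornified envelope genes Lce3a and Cnfn, at 4081 and 8452 CPM in the control library, together with the luminal keratins Krt19 and Krt7, at 4557 and 3360. Its progesterone cells had 162 CPM of Lce3a and 265 of Cnfn, with Krt19 and Krt7 at 7674 and 2709, so the cluster's cells were not alike in the libraries, and differences of members between them cannot be told apart from that. Cluster 9 (399 and 29 cells) held Sprr2d, another envelope gene, at 9838 CPM in the control and 2905 CPM in the progesterone library. Its Cnfn was 222 and 16.2 CPM and its Krt8 209 and 549 CPM, while Krt13 was closer, at 2669 and 2123 CPM. Differences of members between its control and progesterone cells cannot be told apart from that either. Neutrophil-like cells were shallow, with medians of 581 and 776 UMIs.

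**Figure D1:**
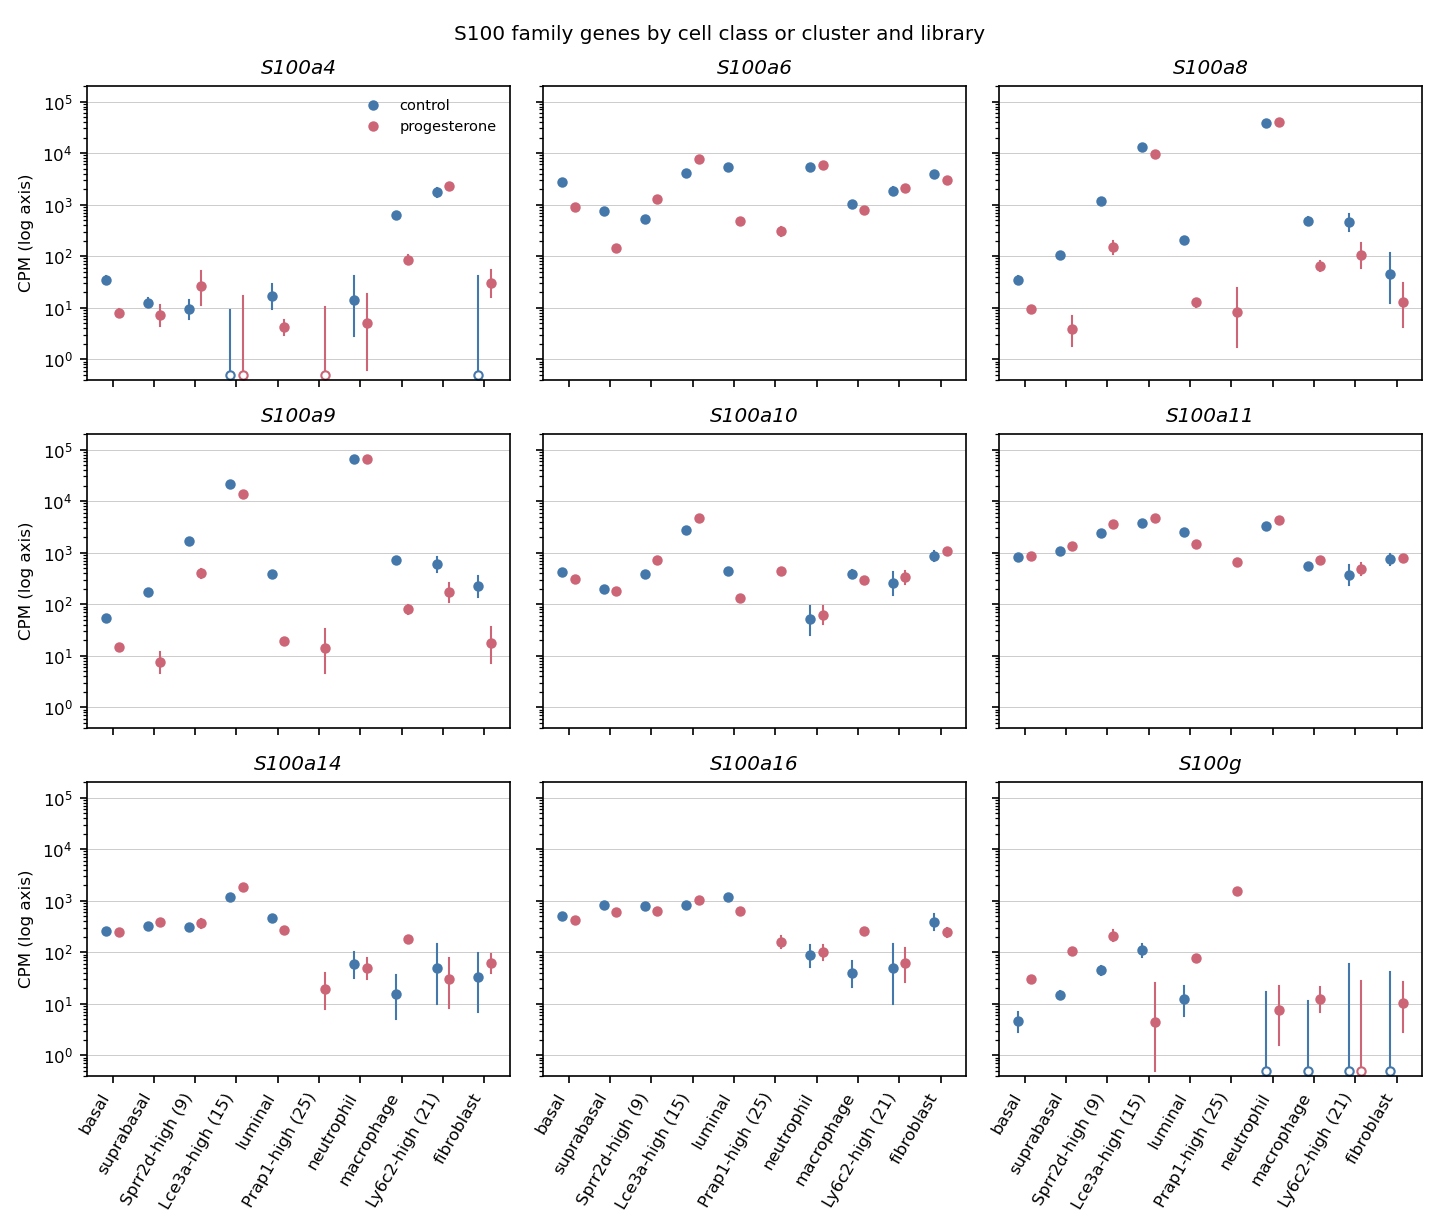
Level of each member in CPM (log axis) by cell class or cluster, blue for the control and red for the progesterone library, with 95% counting intervals and open circles at 0.5 CPM for 0 UMIs. S100a8 and S100a9 stand highest in neutrophil-like cells and next in the Lce3a-high cluster 15, S100a4 in the Ly6c2-high cluster 21, and S100g in the Prap1-high cluster 25, which has cells in the progesterone library only.

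Neutrophil-like cells were the main place of calprotectin RNA. S100a8 stood at 37720 CPM in control and 39745 CPM in progesterone neutrophil-like cells, a ratio of 1.05 [1.03–1.08]. S100a9 stood at 65098 and 65489 CPM, a ratio of 1.01 [0.986–1.03]. At a coarser clustering (Leiden resolution 0.5), which put 461 control cells in place of 341 in the neutrophil-like class, the log2 ratios were 1.44 for S100a8 and 1.38 for S100a9 in place of 0.08 and 0.01. S100a8 made up 36.7% and 37.8% of the summed S100a8 and S100a9 UMIs of these cells. Neutrophil-like cells held 41.3% of the control library's S100a8 UMIs and 84.9% of those of the progesterone library.

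The next highest level outside immune clusters was that of cluster 15. S100a8 was 13123 CPM in its control cells and 9543 CPM in its progesterone cells, and S100a9 was 21268 and 13502 CPM. Cluster 15 was 1.38% of control cells and held 27.3% of the control library's S100a8 UMIs, and in the progesterone library it was 0.187% of cells with 11.4% of the UMIs. Over its 63 control cells the S100a8 level ran from 0 to a median of 6195 and a highest value of 51465 CPM, and over its 16 progesterone cells from 1077 to 6487 to 29623 CPM. Of these cells 50 of 63 and 16 of 16 had at least 1 S100a8 UMI. Cluster 9 came next among the keratin-bearing clusters, at 1161 CPM of S100a8 in the control and 149 CPM in the progesterone library. Its S100a8 was uneven: 49.1% of the 399 control cells had a UMI, and the top 10% of cells held 77.1% of the UMIs.

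To separate RNA made by the epithelium from neutrophil RNA that reached epithelial droplets, 8 genes that mark neutrophils (Retnlg, Csf3r, Cxcr2, Hdc, Clec4d, Acod1, Ly6g and Mmp9) served as tracers, since 1 source of RNA keeps its genes in 1 ratio. Neutrophil-like cells had 2.60 S100a8 UMIs for each tracer UMI in the control library and 2.54 in the progesterone library. The tracer UMIs of a class times that ratio give the S100a8 UMIs that neutrophil RNA could supply. In cluster 15 this came to 1.48% [1.01–2.11] of the observed control S100a8 UMIs and 0.119% [0.003–0.666] of the progesterone ones, and for S100a9 to 1.58% and 0.139%. After subtraction 12928 CPM of S100a8 remained in the control and 9532 CPM in the progesterone cells. Of the 63 control cells, 53 had no tracer UMI at all, and these held 87.1% of the cluster's S100a8 UMIs. The tracers were not left out of the clustering, so droplets with neutrophil RNA could have been drawn into other clusters. The part of this in the low tracer counts was not tested.

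In cluster 9 the tracers matched 9.71% [8.02–11.7] of control S100a8 UMIs, leaving 1048 CPM. The suprabasal squamous-like cluster 8, marked by Sprr2f and Gpx2, had 126 CPM of S100a8 in the control library, of which 12.9% [8.40–18.9] was matched, leaving 109 CPM. In some other control clusters the tracers matched all of the S100a8: 108% in the Krt16 and Krt6b suprabasal cluster 1, 115% in the basal cluster 4, 132% in the luminal cluster 17 and 133% in macrophage-like cells. Cluster 7, a control cluster of 176 cells with both neutrophil markers and Krt5 (4666 CPM), had 2074 CPM of S100a8 and a match of 110%. Squamous-like cells were also summed, without unnamed clusters such as 15, 9 and 7. In the control library those clusters held 5428, 3077 and 1420 S100a8 UMIs, beside 1159 in the squamous-like sum. In the progesterone library they held 2124, 46 and 32, beside 197. The shares of the sum therefore do not describe clusters 15, 9 and 7. Over all control cells of the sum 60.1% [53.1–67.7] of S100a8 UMIs and 64.1% of S100a9 UMIs could be neutrophil RNA. Over progesterone ones the shares were 54.1% [39.0–73.1] and 55.8%. The choice of clusters and tracers moved these shares more than counting error: for S100a8 they ran from 32.3% (libraries clustered apart) to 97.2% (Leiden resolution 0.5) in the control library, and from 32.3% (Retnlg alone) to 203% (the leukocyte genes Srgn, Tyrobp and Fcer1g) in the progesterone library. By layer the control share was 83.3% in basal and 45.6% in suprabasal cells. The control cells of clusters 0, 2 and 5, with 14 to 33 S100a8 UMIs each, had shares of 37.1%, 35.4% and 47.2% with wide intervals (17.3–103 for cluster 5). In the progesterone luminal class the method gave 301%, and there Hdc alone stood at 282 CPM in cluster 25.

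**Figure D2:**
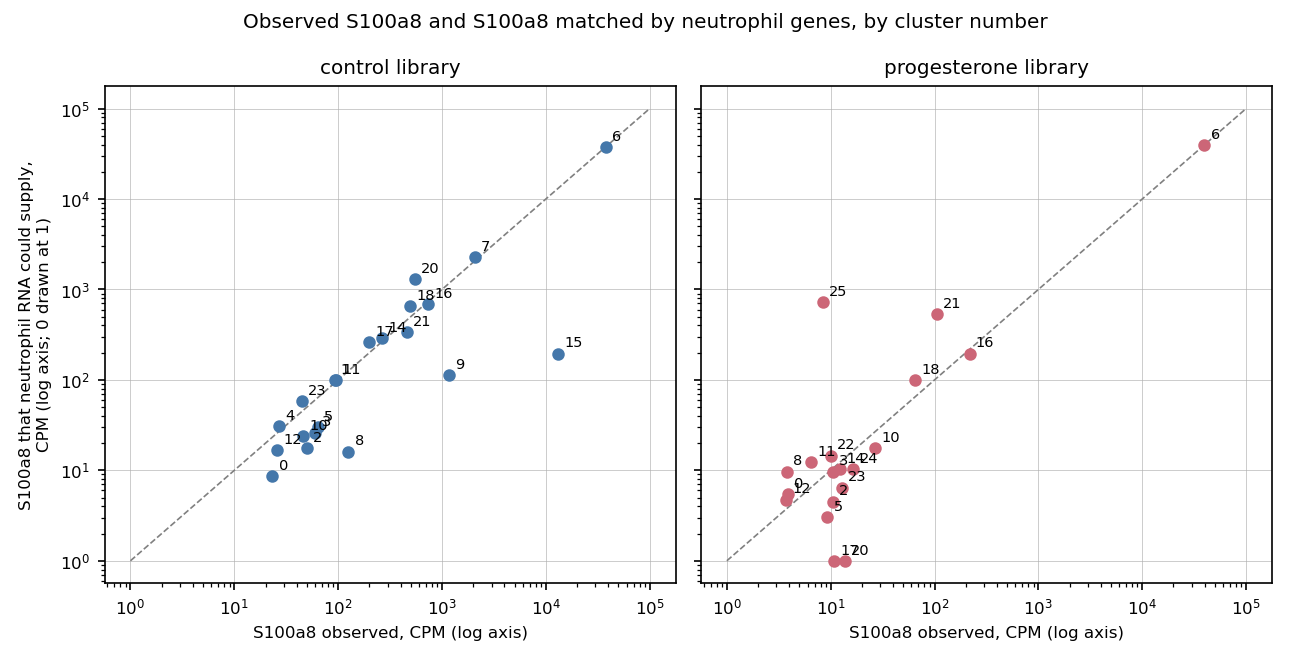
Observed S100a8 (CPM, log axis) against the S100a8 that neutrophil RNA could supply (CPM, log axis, 0 drawn at 1) for each cluster with at least 30 cells in a library, labelled by cluster number, with the dashed line at equality. In the control library clusters 15, 9 and 8 lie far to the right of the line, at 13123, 1161 and 126 CPM observed, while cluster 7 lies on it. Cluster 25 lies above it because its cells hold the tracer gene Hdc.

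The S100a8 and S100a9 levels of the squamous and luminal classes were lower in the progesterone library, with the tracers moving the same way. S100a8 was 34.7 CPM in control and 9.37 CPM in progesterone basal squamous-like cells (ratio 0.270 [0.217–0.336]), and the summed tracers were 11.1 and 1.57 CPM in the same cells. The basal log2 ratio of S100a8 was -1.89, and -3.53 at Leiden resolution 0.5, and that of S100a9 was -1.84 and -3.37. In suprabasal squamous-like cells S100a8 was 105 and 3.78 CPM (ratio 0.0361 [0.0172–0.0667], from 815 and 10 UMIs) and the tracers 18.4 and 2.27 CPM. S100a9 was 172.5 and 7.56 CPM in the suprabasal class. Over the alternatives the suprabasal log2 ratio ran from -5.56 to -3.56 for S100a8 and from -5.14 to -3.27 for S100a9. In cluster 17, the luminal cells present in both libraries, S100a8 was 200 and 10.7 CPM and the tracers were 101 and 0 CPM, the latter from 0 UMIs. With the libraries clustered apart the log2 ratio of the luminal class was -0.02 for S100a8 and -0.42 for S100a9, in place of -4.02 and -4.30, and under the stricter cell filter (at least 500 genes, at most 10% mitochondrial UMIs) it was -2.48 and -2.98. How much of these differences comes from neutrophil RNA was not tested beyond the shares above. Within the suprabasal cluster 0 the S100a8 levels were 23.3 and 3.85 CPM (ratio 0.165 [0.0632–0.410]). With cells thinned to 2000 UMIs, 9.12% of control and 0.604% of progesterone suprabasal cells had an S100a8 UMI (16.8% and 2.92% unthinned, medians 5817 and 7488 UMIs), beside 3.95% and 1.93% of basal cells and 2.67% (2 of 75) of progesterone fibroblast-like cells, which should lack the gene. The progesterone shares are at or below that background, which is itself uncertain [0.325–9.30%]. In the control library 10.5% (6 of 57) of macrophage-like cells had an S100a8 UMI at that depth. The control shares of basal and suprabasal cells do not stand above these cells. Control cells outside the epithelium held S100a8 too. It was 265 CPM (19 UMIs) in blood endothelium-like cells and 551 CPM (32 UMIs) in B and plasma-like cells. Both stand above the 105 CPM of control suprabasal cells. Control fibroblast-like cells had 44.6 CPM (4 UMIs), below that level. Macrophage-like cells had 489 and 64.7 CPM of S100a8, all of it matched by the tracers. Tracer RNA made by the macrophage-like cells themselves would count as matched too, and its part was not tested.

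**Figure D3:**
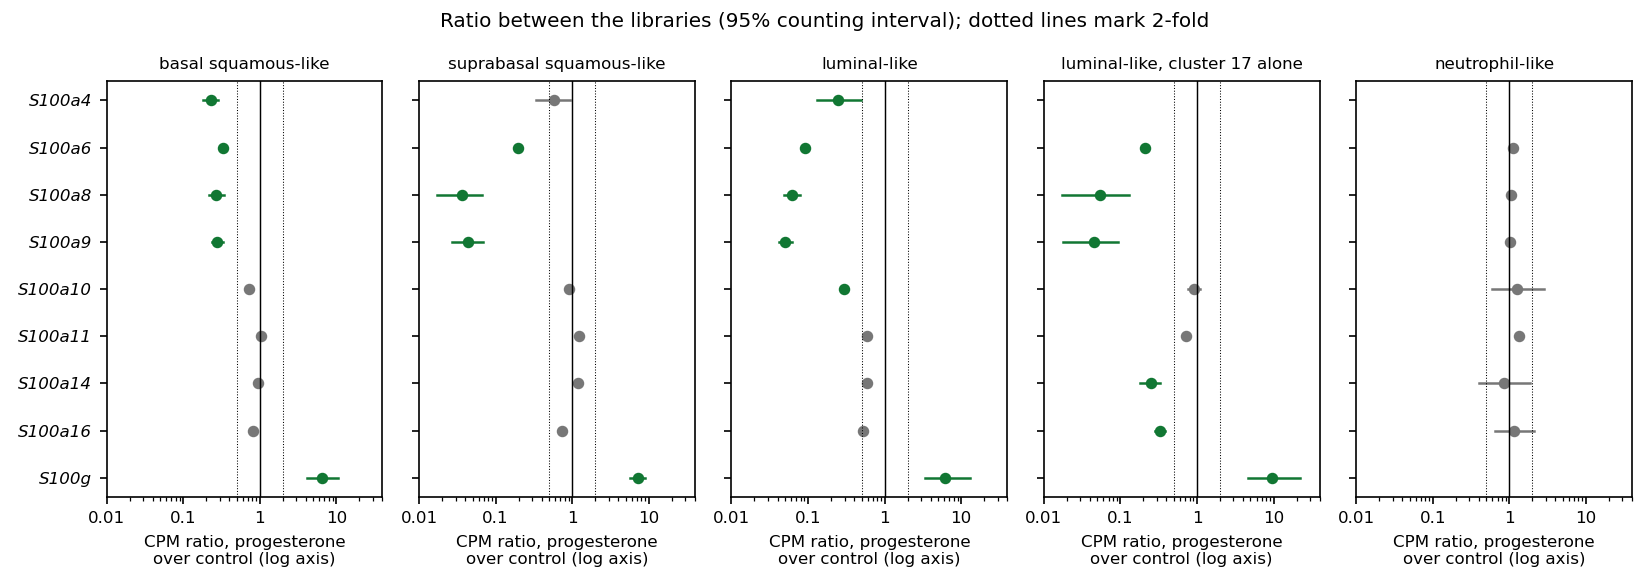
CPM ratio of each member, progesterone over control (log axis), in 5 groups of cells, with 95% counting intervals. Points are green past 2-fold and grey otherwise, dotted lines mark 2-fold, and members under 20 UMIs are left out. S100a6, S100a8 and S100a9 lie below 2-fold and S100g above it in the 4 epithelial panels, while no member passes it in neutrophil-like cells.

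S100a6 (calcyclin; chr3:90612882-90624181, plus strand), which binds annexins and Cacybp, was lower in the progesterone library in each epithelial class. It was 2692 and 893 CPM in control and progesterone basal cells (ratio 0.332 [0.324–0.340]) and 744 and 144 CPM in suprabasal cells (0.194 [0.175–0.215]). Within the luminal cluster 17 it was 5312 and 1110 CPM (0.209 [0.190–0.229]). The whole luminal class gave 5279 and 483 CPM, with clusters 22 and 24 of the progesterone library at 141 and 864 CPM. The size of the difference varied inside the basal class: the ratio was 0.302 in cluster 2 and 0.347 in the cycling cluster 12, but 0.635 in cluster 3 and 0.841 [0.785–0.903] in cluster 5, which is marked by Apoe and Igfbp5. Cluster 4, the main control basal cluster, had 3273 CPM, and the part of the changed make-up of the class in its ratio was not tested. Under the stricter cell filter the basal log2 ratio was -0.999, just short of 2-fold, in place of -1.59, and with doublets kept the suprabasal one was -3.49 in place of -2.36. Outside the epithelium S100a6 was close in the libraries, at 5382 and 5924 CPM in neutrophil-like cells and 3883 and 2943 CPM in fibroblast-like cells. In cluster 15 it was higher in the progesterone library, at 4076 and 7670 CPM. In control clusters the order from the top was neutrophil-like, cluster 17 (the intervals of these neighbours overlap), cluster 15 and fibroblast-like, with cluster 8 lowest at 119 CPM. With cells thinned to 2000 UMIs, 87.1% of control and 65.2% of progesterone basal cells had an S100a6 UMI (83.7% and 77.2% unthinned).

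S100a4 (chr3:90603771-90606045, plus strand), which binds non-muscle myosin and is used as a marker of motile and myeloid cells, had its highest level in cluster 21. This unnamed cluster of 46 cells in each library held the monocyte genes Ly6c2 and Ccr2, at 2185 and 1581 CPM in the control library. S100a4 was 1728 CPM [1415–2090] there in the control and 2296 CPM [2045–2569] in the progesterone library, where the cluster's 0.539% of cells held 43.4% of the S100a4 UMIs. Macrophage-like cells had 629 and 86.0 CPM (ratio 0.137 [0.106–0.175]), a 7.32-fold lower level in the progesterone library. Beside it, Ccr2 was 421 and 113 CPM and the resident macrophage gene C1qa 3783 and 2607 CPM in these cells, and Krt5 was 294 and 1863 CPM. Their part in the S100a4 difference was not tested. In the epithelium S100a4 was sparse, at 35.0 and 7.96 CPM in basal cells (0.228 [0.181–0.286]), 12.5 and 7.18 CPM in suprabasal cells and 17.1 and 4.18 CPM in luminal cells. The suprabasal log2 ratio of S100a4, -0.77, was past 2-fold with doublets kept (-1.94) and at Leiden resolution 2 (-1.08). Within the basal cluster 5 it was 29.1 and 8.41 CPM (ratio 0.289 [0.165–0.538]). Cluster 15 had 0 S100a4 UMIs in both libraries, which allows up to 7.25 CPM in the control and 13.5 CPM in the progesterone cells, and neutrophil-like cells had 3 and 2 UMIs.

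S100a10 (p11; chr3:93555080-93564643, plus strand), the partner of annexin A2, was highest in cluster 15 in the control library, at 2771 CPM, and its 16 progesterone cells had 4772 CPM. Fibroblast-like cells had 870 and 1094 CPM, and neutrophil-like cells were lowest in both libraries, at 50.6 and 62.8 CPM. Basal cells had 427 and 308 CPM (0.721 [0.685–0.759]) and suprabasal cells 199 and 179 CPM. The luminal class had 443 and 132 CPM (0.297 [0.264–0.334]), but cluster 17 alone had 448 and 406 CPM (0.905 [0.755–1.08]). Clusters 22 and 24, most of the progesterone luminal class, had 75.1 and 145 CPM. With the libraries clustered apart the log2 ratio of the class was -1.13 in place of -1.75.

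S100a11 (chr3:93520488-93526287, plus strand), the partner of annexin A1, was among the most even members. Basal cells had 837 and 865 CPM (1.03 [0.997–1.07]), suprabasal cells 1098 and 1368 CPM (1.25 [1.2–1.3]) and cluster 17 2564 and 1861 CPM (0.726 [0.670–0.786]). Neutrophil-like cells had 3249 and 4330 CPM (1.33 [1.22–1.46]), above every epithelial cluster with at least 30 cells except control cluster 15, at 3837 CPM. Cluster 10, an unnamed cluster of shallow cells, had 703 and 1707 CPM (2.43 [2.06–2.88]).

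S100a14 (chr3:90526856-90528837, plus strand) and S100a16 (chr3:90537254-90543151, plus strand) are neighbouring epithelial genes and ran alike over clusters, with a Pearson r of 0.84 over the 41 cluster and library sums (log2 of CPM + 10; sums of 1 library share its depth and free RNA). Basal cells had 258 and 248 CPM of S100a14, suprabasal ones had 319 and 381 CPM, and S100a16 was 502 and 415 CPM and 827.5 and 609 CPM in the same layers. Neither passed 2-fold in these classes. In the luminal cluster 17 both were lower in the progesterone library: S100a14 at 458 and 114 CPM (0.248 [0.182–0.332]) and S100a16 at 1172 and 386 CPM (0.330 [0.279–0.387]). Cluster 22, the larger progesterone luminal cluster, had 371 CPM of S100a14 and 757 CPM of S100a16, so low values of these genes did not hold for all progesterone luminal cells. Macrophage-like cells showed the opposite direction, with S100a14 at 15.5 and 178 CPM (5 and 201 UMIs) and S100a16 at 40.3 and 263 CPM. In these cells the keratins Krt5 and Krt14 were 294 and 744 CPM in the control and 1863 and 3911 CPM in the progesterone library, and their part in the difference was not tested. The highest S100a14 level was that of cluster 15, at 1168 CPM in the control and 1860 CPM in the progesterone library.

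S100g was the only member higher in the progesterone library in all 3 epithelial classes. It was 4.59 and 29.7 CPM in basal cells (6.47 [4.19–10.5], log2 2.66, from 21 and 567 UMIs), 14.7 and 105 CPM in suprabasal cells (7.17 [5.74–8.99]) and 12.2 and 75.8 CPM in luminal cells (6.21 [3.36–13]). Other clusterings gave basal log2 ratios of 1.54 to 1.59 and the stricter cell filter 1.2, lower but on the same side of 2-fold, and the suprabasal log2 ratio of 2.84 ran from 2.17 (stricter filter) to 3.97 (doublets kept). Within clusters it was 13.3 and 108 CPM in the suprabasal cluster 0, 13.6 and 68.4 CPM in the basal cluster 2, and 11.3 and 107 CPM in cluster 17. Cluster 5, with 2150 of the 3866 progesterone basal cells, did not share this, at 5.83 and 4.11 CPM (3 and 41 UMIs, ratio 0.704 [0.225–3.56]). The progesterone basal value rests largely on cluster 2, whose 1165 cells held 461 of the 567 UMIs. The highest level by far was 1548 CPM [1422–1683] in cluster 25, a luminal-like cluster of 39 progesterone cells that was also high in the secreted protein gene Prap1, at 55323 CPM. These 0.457% of cells held 30.6% of the S100g UMIs of the progesterone library, and after thinning to 2000 UMIs 27 of the 39 had an S100g UMI (69.2%, 84.6% unthinned). The main progesterone luminal clusters, 22 and 24, had 19.2 and 10.9 CPM, so the class value rests largely on cluster 25. In the control library the highest levels were in cluster 15 (109 CPM) and cluster 9 (44.5 CPM). Cluster 9 had 210 CPM in the progesterone library, and cluster 15 had 4.49 CPM there, from 1 UMI. After thinning, 2.19% of control and 17.5% of progesterone suprabasal cells had an S100g UMI (6.89% and 41.7% unthinned, medians 5817 and 7488 UMIs), against 1.33% (1 of 75) of progesterone fibroblast-like cells. Neutrophil-like cells had 0 UMIs in the control library, which allows up to 13.8 CPM, and 3 in the progesterone library.

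**Figure D4:**
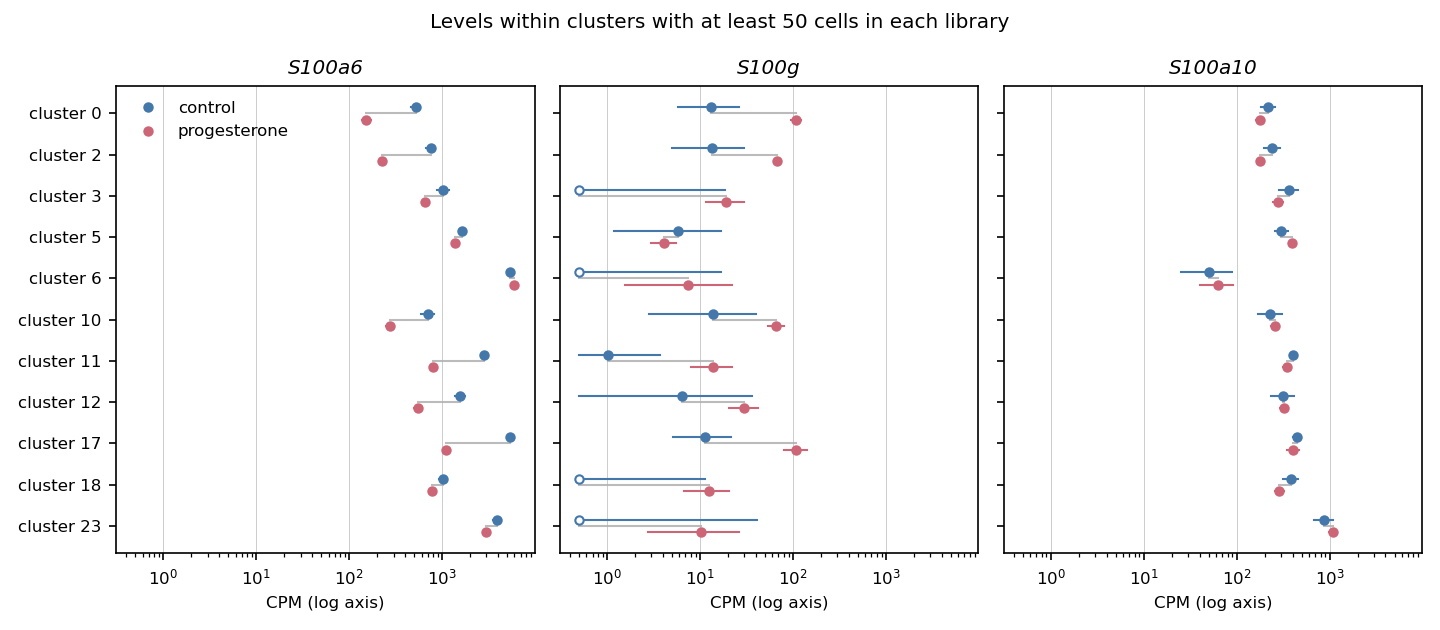
Levels of S100a6, S100g and S100a10 in CPM (log axis) within clusters that had at least 50 cells in each library, blue for control and red for progesterone, with 95% counting intervals and open circles at 0.5 CPM for 0 UMIs. S100a6 is past 2-fold lower with progesterone in clusters 0, 2, 10, 11, 12 and 17, and less so in clusters 3 (ratio 0.635) and 5 (0.841). S100g is past 2-fold higher in clusters 0, 2, 3, 10, 12 and 17, of which clusters 3, 10 and 12 have at most 3 control UMIs, and not in cluster 5. The S100a10 points of the libraries lie close together in each cluster.

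Counted by the 2-fold rule for genes with at least 20 UMIs over the libraries, 5 of 9 members were past 2-fold in basal cells, 1 higher and 4 lower in the progesterone library, where 14.9% of all genes tested were (8.96% higher, 5.92% lower). In suprabasal cells 4 of 9 were, 1 higher and 3 lower, beside 13.3% of all genes (7.78% higher, 5.55% lower). In the luminal class 6 of 9 were, 1 higher and 5 lower, beside 22.7% of all genes (16% higher, 6.74% lower). In cluster 17 alone 6 of 8 were, 1 higher and 5 lower, beside 17.3% of all genes (6.93% higher, 10.4% lower). No member of 7 was in neutrophil-like cells, where 13.5% of all genes were (8.2% higher, 5.32% lower). The median log2 ratio of the members was -0.47 in basal cells, -0.44 in suprabasal cells, -1.80 in cluster 17 and 0.14 in neutrophil-like cells, beside medians of all genes tested of -0.00, 0.12, -0.03 and 0.00. S100a8 and S100a9 enter these counts with the neutrophil RNA shares given above. With 1 library per group, none of these counts has a replicate check.

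Other genes of the family were mostly scarce, and 4 of the 7 listed (S100a1, S100a3, S100a7a and S100a13) had 20 UMIs or more. S100a7a, the mouse psoriasin-type gene of stressed keratinocytes, lay almost wholly in cluster 15, at 996 and 553 CPM, with 412 of the control library's 484 UMIs. S100a1 was 258 and 354 CPM in cluster 17 and S100a13 was 243 and 107 CPM there. Of these genes 0 were higher and 1 of 3 lower past 2-fold in basal cells, none of 2 in suprabasal cells, 1 of 3 lower in the luminal class, and none of 1 in neutrophil-like cells. Of the 7 fused-type S100 genes, which build the cornified layer, Flg, Rptn and Tchh were measured. All 46 control Flg UMIs lay in cluster 15 (111 CPM), and Rptn stood at 95.9 CPM in cluster 9 and 93.9 CPM in cluster 17 of the control library. Both fused-type genes tested in the luminal class were lower in the progesterone library, as was 1 of 2 in suprabasal cells.

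Of the 16 genes for partners, receptors and calcium transport, 14 had enough UMIs. The shares of all genes given above (14.9% in basal, 13.3% in suprabasal, 22.7% in luminal and 13.5% in neutrophil-like cells) are the background for these list counts and for those of the other S100 and fused-type genes. In basal cells 2 of 10 were past 2-fold and higher in the progesterone library: Anxa1, the partner of S100a11, at 96.5 and 224 CPM, and Tlr4, a receptor for S100a8 and S100a9, at 1.97 and 4.66 CPM. In suprabasal cells 1 of 10 was higher (Tlr4, 2.44 and 7.56 CPM), and in neutrophil-like cells none of 8 passed, with Tlr4 at 142 and 138 CPM. The part of neutrophil RNA in the low Tlr4 levels of the squamous classes was not tested. In the luminal class 3 of 12 were higher and 1 lower, the latter Anxa2, the partner of S100a10, at 3893 and 1084 CPM. Within cluster 17 Anxa2 was 3923 and 1773 CPM and Trpv6, a calcium channel of absorbing epithelia, was 13.8 and 36.5 CPM. Calb1, the larger calbindin, lay beside S100g: cluster 25 held 67 of the 68 Calb1 UMIs of progesterone luminal cells. Trpv6 was at 126 and 171 CPM in cluster 9 and 123 and 85.4 CPM in cluster 15.

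The genes most like each member were taken by Pearson r of log2(CPM + 10) over the 41 cluster and library sums among 4716 genes, as a description. S100a8 was most like Cxcl2 (0.96), Mxd1 (0.92) and Il1rn (0.91), the same 3 genes as for S100a9, and S100a8 and S100a9 had an r of 0.99 with each other. S100a4 was nearest to Ms4a6b (0.92), Tifab (0.92) and Ifi209 (0.91). For S100g the nearest were Prap1 (0.78), Sftpd (0.75) and Atp2b2 (0.71). S100a14 was nearest to Serpinb8 (0.87) and S100a16 to Anxa8 (0.89), with Anxa8 also near S100a14 (0.82). S100a11 was nearest to Cd24a (0.76), S100a10 to Plat (0.71) and S100a6 to Pfkp (0.67).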

How the data were processed

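Cervix cells were freed by a protease acting at 4 °C for 60 min, passed through a 40 µm strainer and made into 10x 3′ libraries, per the labels' protocols. The authors deposited UMI counts per gene and barcode, unnormalised, made with Cell Ranger 3.0.2 on mm10, per the submitters' processing notes; the annotation is not given in the sources used here. The libraries held 5368 and 10853 barcodes and 21658684 and 44811069 UMIs. Barcodes under 200 genes or over 20% mitochondrial UMIs were dropped (4760 control and 9221 progesterone barcodes passed), and doublets called with the Scrublet method of scanpy 1.11.5 at 0.8% per 1000 barcodes were left out (181 and 680). Both libraries were clustered together (Leiden resolution 1, 2000 variable genes, 30 components) without S100 or mitochondrial genes. Clusters were named from marker lists by thresholds set after the clusters were seen; rebuilt names may differ from the study's. UMIs were summed per class and library, with exact Poisson, binomial and conditional binomial 95% intervals. Genes with at least 20 UMIs were counted past a 2-fold ratio. Thinning drew 2000 UMIs per cell and left out shallower cells. The named genes are the 9 members, the listed relatives and partners with at least 20 UMIs in either library, and the 3 genes most like each member. The members and lists were chosen with earlier results of these data known. PCR duplicates are removed by UMIs, but cells of 1 library are not replicates. Positions come from GENCODE (GRCm38). Counting does not separate overlapping genes, and S100a3 overlaps S100a2 in the annotation.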

Additional observations from a re-analysis of the deposited data

How the results depend on the processing

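Counts of members past 2-fold ran from 4 to 5 in basal cells, 4 to 5 in suprabasal cells and 5 to 7 in luminal cells over the alternatives. In neutrophil-like cells the count of 0 became 7 at Leiden resolution 0.5 and 2 with no filter on low counts. The cause of the first was not tested, and the second adds members under 20 UMIs. Shares of all genes past 2-fold are given for the main setting only. The counts under the alternatives therefore have no background and cannot be read as particular to the members. No called ratio changed sign in the basal, suprabasal and luminal classes. Neutrophil-like cells had no member past 2-fold in the main setting, so the check says nothing there. Their log2 ratios of S100a4, S100a6 and S100a11 kept their sign, and those of the other members did not, such as S100a10 (-1.18 to 0.62). Of the members' ratios under the alternatives, 39 in basal cells lay outside the main counting interval and 24 within it. The counts outside and within were 24 and 30 in suprabasal, 21 and 33 in luminal and 15 and 38 in neutrophil-like cells. The luminal S100a8 log2 ratio of -4.02 became -0.02 and that of S100a9 -0.42 (from -4.30) with libraries clustered apart, and the basal S100a6 ratio of -1.59 became -0.999 with the stricter cell filter; the causes were not tested. The share of squamous S100a8 UMIs (unnamed clusters left out) that neutrophil RNA could supply depended on the clustering and the tracers. In the control library (60.1%) it was 97.2% at Leiden resolution 0.5, 71.9% at resolution 2, 32.3% with libraries clustered apart, 68.5% with Il1b alone, 42.6% with Retnlg alone and 38.0% as the share in cells with a tracer UMI, and for S100a9 (64.1%) 96.2%, 73.3%, 36.9%, 73.1%, 45.5% and 39.3%. In the progesterone library (54.1%) it was 109.7% with Il1b, 203% with the leukocyte genes Srgn, Tyrobp and Fcer1g, 32.3% with Retnlg and 5.08% in cells with a tracer UMI, and for S100a9 (55.8%) 113%, 209%, 33.3% and 4.13%. Chosen after seeing the data, the same alternatives were run on the cluster highest in Lce3a: its S100a8 level ran from 5829 to 11204 CPM (control) and 3228 to 9050 CPM (progesterone), and the matched share from 2.03% to 2.07% and 0.119% to 0.233% over other clusterings, and with other tracers from 0.505% to 3.30% and 0 to 6.58%. Not run for want of cells were the suprabasal count at resolution 0.5 (3 progesterone cells), the luminal count with doublets kept (33 control cells) and, with no neutrophil-like cells left, the neutrophil count and the tracer shares under the stricter cell filter. No paired analysis was possible because each group has 1 library. Depth limits the sparse members most, such as S100a4 and S100g in neutrophil-like cells, with at most 3 UMIs a library.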
